A study of Mus musculus with 4 samples.

Results

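The immediate early genes, with the KLF transcription factors and the DUSP phosphatases that are induced beside them, were followed here as a set of 42 mouse genes. The set and the related lists below were drawn up by gene name, with earlier results of these data known. Of the 42, 40 were measured on a row of the array that carries 1 gene symbol, out of 22180 genes in all. Where a gene had more than 1 such row, the row with the highest mean was used. Fosl1 and Gadd45a were named only on rows shared with another gene and have no value here. The 40 fell into AP-1 (7 genes), EGR (4), NR4A (3), KLF (11), DUSP (8), IER (3) and GADD45 (2), with Maff and Myc beside them. RNA came from fibroblasts of wild-type mice (WT) and of Zip13-/- mice (Zip13KO), which lack the zinc transporter that Slc39a13 encodes, with 2 arrays per group (Affymetrix Mouse Gene 2.0 ST). The labels call the 2 arrays of a group biological replicates without saying whether they came from separate mice or cultures. Every p-value therefore measures no more than the spread between these arrays, and that spread may be technical. The sources used here give no strain, age, allele, passage or culture conditions.

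Immediate early genes are transcribed within minutes of a stimulus, before any new protein is made. Growth factors in serum reach them through the MAP kinase ERK, which phosphorylates ternary complex factors that sit with the serum response factor SRF on CArG boxes, while cAMP and calcium act through CREB on cAMP response elements. Among the proteins then made, FOS, JUN and EGR proteins are transcription factors. Others, such as the DUSP phosphatases, the Sprouty proteins and the NAB corepressors, shut the signal down again. In fibroblasts the return of serum after starvation is the classical trigger.

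Median intensity per array lay between 94.5 and 96.1, and arrays of the same group correlated at 0.994 (Pearson's r over rows, as a description), against 0.983 to 0.985 between groups. Of 10 fibroblast markers measured, 9 lay above the array median on every array, and Lum lay below it on all 4. The leukocyte genes Ptprc, Adgre1, Itgam and Lyz2 and the endothelial genes Kdr, Tek, Tie1 and Emcn lay below it on every array. Of the same lists, the leukocyte genes Cd68, Cd14, Cd163 and Cd3e and the endothelial genes Pecam1 and Cdh5 lay above it on all 4, and Csf1r on 3. Cd68 rose by 0.40, and Cd14 and Csf1r fell by 0.32 and 0.26. The summed intensity of all 9 leukocyte markers was 940 to 988 in WT and 922 to 957 in Zip13KO, and that of all 6 endothelial markers 493 to 496 and 517 to 518. The summed intensity of 7 smooth muscle and pericyte markers was 13204 and 13700 on the WT arrays and 3071 and 3136 on the Zip13KO arrays, and 5 of the 7 fell (limma). That of the 10 fibroblast markers was 19033 and 19786 in WT and 14706 and 15495 in Zip13KO, with 1 higher and 5 lower. In bulk RNA, fewer cells of a type and less RNA per cell cannot be told apart, and the part of these shifts in the results below was not tested. Slc39a13 itself had a log2 intensity of 8.94 and 8.85 in WT and 8.89 and 8.98 in Zip13KO, a difference of 0.04 (95% interval -0.12 to 0.20). Which exons its probes cover, and which the allele removes, is not known here, so the value does not check the labels.

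The set changed in both directions and was split within families. On the arrays labelled Zip13KO, 10 of the 40 genes rose and 14 fell (limma, Benjamini-Hochberg adjusted p under 0.05 over all 22180 genes), against 7.00% of all genes that rose, 10.1% that fell and 17.1% called in either direction. The members' own shares were 25.0% and 35.0%. The members were chosen with earlier results of these data known, so these shares describe the set and test nothing. The median difference of the 40 genes was -0.02 log2 units, beside -0.00341 over all genes, and the median size of the difference regardless of sign was 0.30 log2 units, beside 0.09. Klf15 was below the array median throughout, and the other 39 were brighter than it on 2 arrays or more. Among the 13819 genes of the whole array that did so, 10.6% rose and 15.5% fell. The Zip13KO arrays lay entirely above the WT arrays for 12 members and entirely below for 18, where 24.1% and 27.3% of all genes did so. Differences of at least 2-fold were found for 3 members past the threshold, Dusp1, Klf5 and Gadd45g, against 1.17% of all genes. With 2 arrays a group, the smallest two-sided p that an exact permutation could give is 0.333, so each call rests on limma's moderated model.

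**Figure D1:**
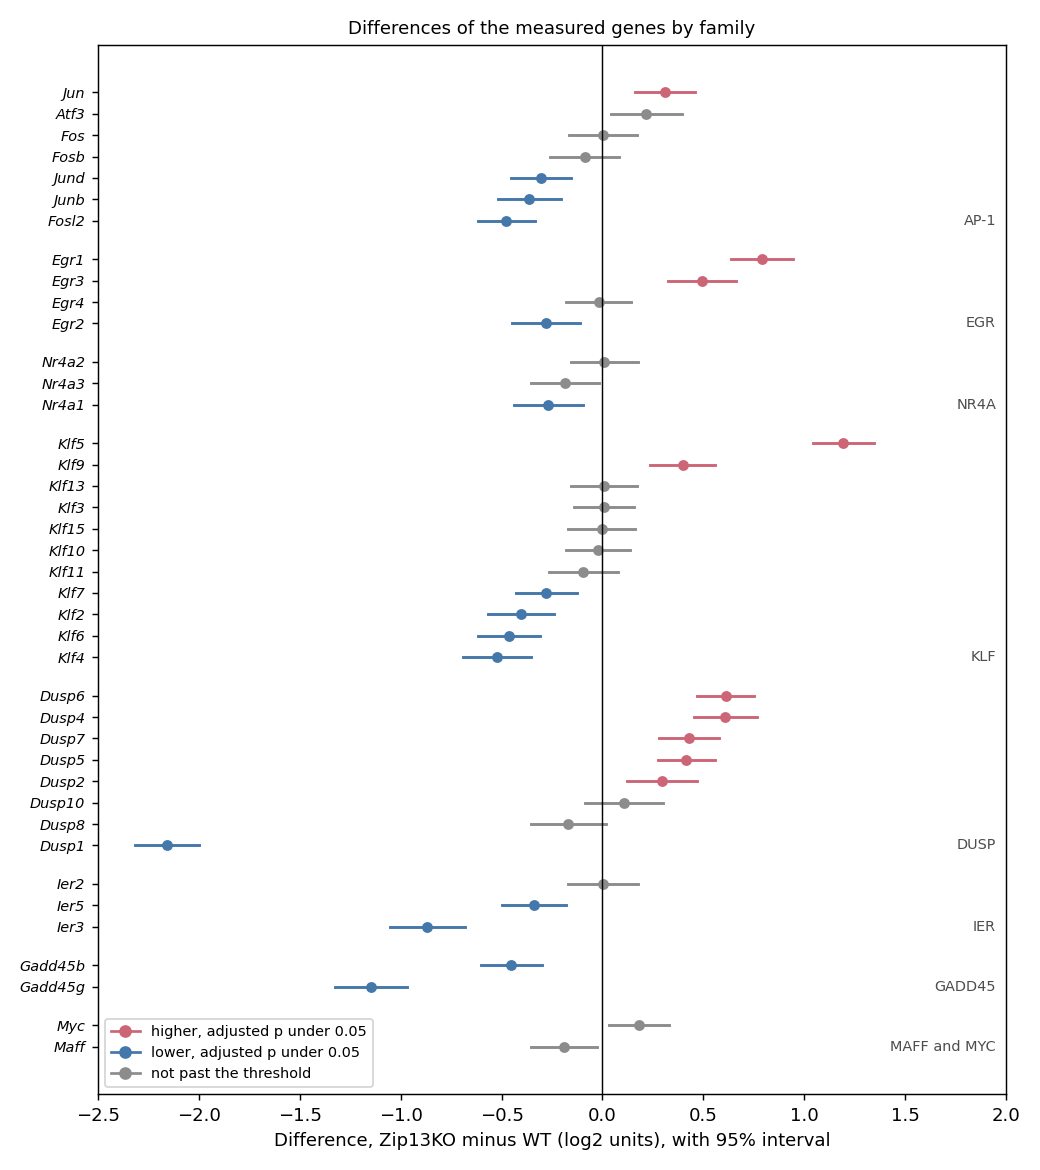
Difference in log2 intensity, Zip13KO minus WT, of the 40 measured genes, ordered within each family, with the 95% interval of the limma fit as a line (2 arrays per group). Dusp1 lies farthest from 0 at -2.16 and Klf5 farthest above it at 1.19, while the intervals of Fos, Nr4a2, Klf3, Klf13, Klf15 and Ier2 are centred within 0.01 of 0.

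Promoter windows were found in the RefSeq table (GRCm38.p6) for 33 of the 40 genes, each from 250 bases before a transcription start to 50 after it. Egr1, Egr3, Klf5 and Dusp4, which rose, and Klf10, Ier2 and Myc, which did not pass, had no window and were not searched. The 5 windows shown are examples, picked after the matches were seen so that each element searched appears and genes that rose and fell are both included. EGR sites were also present in windows not shown, among called genes those of Dusp2, which rose, and of Fosl2, Klf2, Gadd45b and Nr4a1, which fell. Only the 250 bases before the start are printed, 5′ to 3′ on the gene's strand, with the matches in capitals. Dusp1, which fell most, carries a cAMP response element (TGACGTCA) in chr17:26508473-26508722 (- strand). Dusp5, which rose, carries adjoining CArG boxes in chr19:53528895-53529144 (+ strand). Egr2, which fell, carries a CArG box in the window shown, chr10:67537316-67537565 (+ strand), and it had 5 windows, of which 4 hold one. The others that hold one overlap each other and share the same site, CCATATATGG. Klf4, which fell, carries EGR sites (GCGNGGGCG) in chr4:55532476-55532725 (- strand). Klf9, which rose, carries a match to the letters searched for AP-1 (TGANTCA) in chr19:23140976-23141225 (+ strand). These letters allow any base at N, and the match reads TGAATCA.
Dusp1: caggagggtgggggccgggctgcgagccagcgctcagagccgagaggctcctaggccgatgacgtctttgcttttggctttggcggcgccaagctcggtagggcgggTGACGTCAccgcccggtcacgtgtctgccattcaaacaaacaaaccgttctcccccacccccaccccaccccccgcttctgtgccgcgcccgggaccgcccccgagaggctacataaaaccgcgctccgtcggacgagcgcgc
Dusp5: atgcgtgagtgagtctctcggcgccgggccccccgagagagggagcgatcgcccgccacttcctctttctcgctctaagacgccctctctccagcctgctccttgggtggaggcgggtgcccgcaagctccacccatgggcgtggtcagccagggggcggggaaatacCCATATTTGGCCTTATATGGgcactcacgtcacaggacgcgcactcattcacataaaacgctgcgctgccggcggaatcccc
Egr2: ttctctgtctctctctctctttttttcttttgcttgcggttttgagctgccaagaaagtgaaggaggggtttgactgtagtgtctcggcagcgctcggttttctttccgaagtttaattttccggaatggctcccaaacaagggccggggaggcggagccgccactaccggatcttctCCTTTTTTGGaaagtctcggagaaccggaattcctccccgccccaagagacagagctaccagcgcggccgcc
Klf4: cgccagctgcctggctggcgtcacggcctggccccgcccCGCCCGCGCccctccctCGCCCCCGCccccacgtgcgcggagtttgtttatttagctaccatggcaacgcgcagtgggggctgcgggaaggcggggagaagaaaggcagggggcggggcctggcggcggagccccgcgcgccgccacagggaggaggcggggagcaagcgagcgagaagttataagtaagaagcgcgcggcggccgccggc
Klf9: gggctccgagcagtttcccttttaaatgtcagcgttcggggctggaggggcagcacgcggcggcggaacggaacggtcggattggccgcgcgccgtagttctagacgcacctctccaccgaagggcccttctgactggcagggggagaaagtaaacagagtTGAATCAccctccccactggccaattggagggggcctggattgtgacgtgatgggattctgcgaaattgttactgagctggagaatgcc

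Over both strands, a CArG box was present in 2 of the 33 genes (6.06%, beside 1.81% of 27025 genes with a window). The cAMP response element was present in 3 (Dusp1, Dusp8 and Maff, or 9.09%, beside 2.03%). The letters TGANTCA, with any base at N, were present in Klf9 alone (3.03%, beside 8.97%). EGR sites were present in 11 (33.3%, beside 6.27%). Of genes with a window, 1 of 6 that rose, 5 of 14 that fell and 5 of 13 not past the threshold held one. The members' windows were richer in G and C, at 64.9% on average beside 53.8%. Among windows with at least 60% G and C, 11 of 28 member windows and 16.6% of all windows held an EGR site. Genes that carried the same element did not all change in the same direction: of the genes with a CArG box, Dusp5 rose and Egr2 fell. The search is of letters in a short window and describes no binding.

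The phosphatases that switch off MAP kinases diverged, with Dusp1 far lower and most of the others higher. Of 8 DUSP genes, 5 rose (62.5%) and 1 fell (12.5%), beside 7.00% and 10.1% of all genes. Dusp1 encodes MKP-1, a nuclear phosphatase that acts on p38 and JNK as well as ERK. Its log2 intensity was 10.67 and 10.49 in WT and 8.43 and 8.41 in Zip13KO. Both Zip13KO arrays lay far below both WT arrays and close to each other. Dusp1 fell by 2.16 log2 units (SE 0.08, adjusted p = 6.52e-13), or 4.46-fold. It ranked 35 of all 22180 genes by the size of its difference. Dusp6 and Dusp7 encode cytoplasmic phosphatases that prefer ERK. Dusp6 stood at 9.94 and 9.87 in WT and at 10.53 and 10.51 in Zip13KO, a rise of 0.61 (SE 0.07, adjusted p = 2.32e-06). Dusp7 stood at 9.63 and 9.54 in WT and at 9.97 and 10.06 in Zip13KO, a rise of 0.43 (adjusted p = 2.53e-04). In both genes the groups did not overlap. Dusp6 had another, dimmer row with a difference of 0.13.

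Dusp4 and Dusp5 encode nuclear phosphatases induced by ERK signalling. Dusp4 was at 8.30 and 8.29 in WT and at 8.95 and 8.86 in Zip13KO, and rose by 0.61 (SE 0.07, adjusted p = 9.43e-06). Dusp5 was at 9.79 and 9.82 in WT and at 10.22 on both Zip13KO arrays, and rose by 0.42 (SE 0.07, adjusted p = 1.74e-04). Each Zip13KO array lay above each WT array for Dusp2 as well, another nuclear phosphatase, at 6.91 and 6.98 against 7.30 and 7.18. Dusp2 rose by 0.29 (adjusted p = 0.0179), but it did not pass with WT replicate 1 left out (0.26, adjusted p = 0.113), with Zip13KO replicate 1 left out (0.24, adjusted p = 0.134) or with all rows of the table in the fit (adjusted p = 0.114). Dusp8 and Dusp10, which act on JNK and p38, did not pass, at -0.17 (95% interval -0.36 to 0.02) and 0.11 (-0.09 to 0.30). Dusp10 was at 8.61 and 8.71 in WT and at 8.92 and 8.61 in Zip13KO, so that only Zip13KO replicate 1 stood above WT, and with Zip13KO replicate 2 left out it passed at 0.26 (adjusted p = 0.0418), while with Zip13KO replicate 1 left out it was at -0.05 (adjusted p = 0.861).

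**Figure D2:**
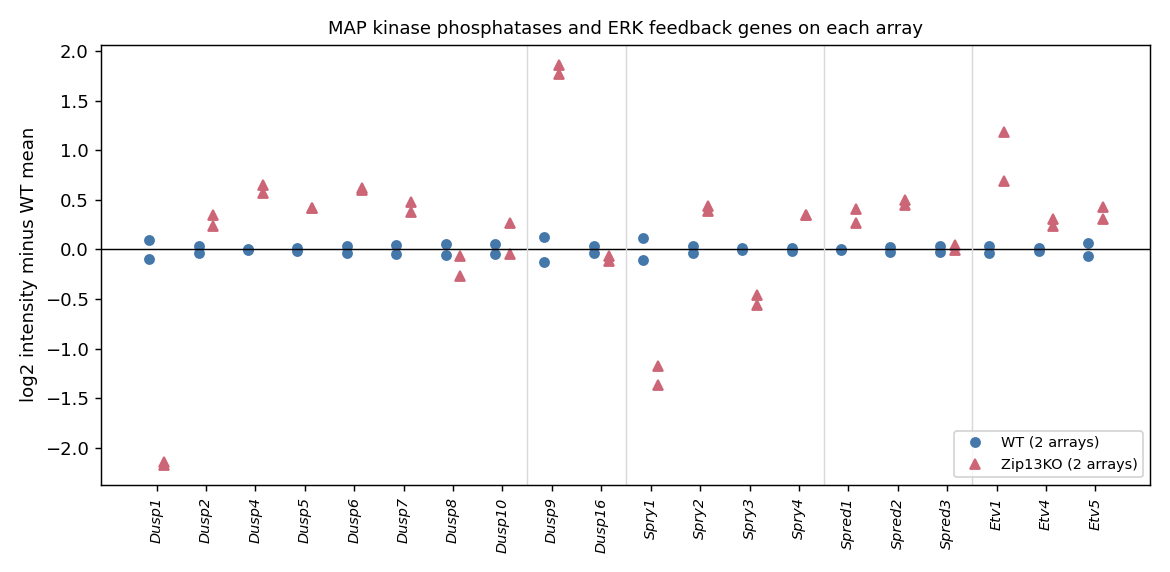
Log2 intensity minus the WT mean of the gene, for the MAP kinase phosphatases in the set (Dusp1 to Dusp10), the other MAP kinase phosphatases Dusp9 and Dusp16, and the Sprouty, Spred and Etv genes; circles are the 2 WT arrays and triangles the 2 Zip13KO arrays. Dusp1, Spry1 and Spry3, which fell, lie below WT, as by less do Dusp8 and Dusp16, which did not pass, and Dusp9 lies highest.

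Other genes of ERK feedback were likewise split. From a list of 15 feedback and ETS genes outside the set, 8 rose (53.3%) and 4 fell (26.7%), beside 7.00% and 10.1% of all genes. Their median difference was 0.26 log2 units, beside -0.00341 over all genes. Dusp9, a further phosphatase that prefers ERK, was at 7.23 and 7.48 in WT and at 9.22 and 9.12 in Zip13KO, and rose by 1.81 (SE 0.09, adjusted p = 4.92e-11). Dusp16, which acts on JNK, was at -0.09 and did not pass (adjusted p = 0.508). Sprouty proteins restrain signalling from growth factor receptors to ERK. Spry2 and Spry4 rose, by 0.41 and 0.35, whereas Spry1 fell by 1.27 (SE 0.09) and Spry3 fell by 0.51. Spry1 was at 8.23 and 8.01 in WT and at 6.95 and 6.76 in Zip13KO. The related Spred1 and Spred2 rose by 0.34 and 0.47, and Spred3 was at 0.02 (adjusted p = 0.937). The ETS factors Etv1, Etv4 and Etv5, whose genes respond to ERK, rose by 0.94, 0.27 and 0.37. Other ETS factors did not follow them: Ets2 fell by 0.49 (adjusted p = 2.42e-04), and Ets1 was at -0.10 (adjusted p = 0.512). Phlda1, another gene induced through ERK, fell by 0.51 (adjusted p = 4.71e-05). Etv1 and Etv5 had another row, at 0.47 and 0.13. For Etv1 the Zip13KO arrays stood apart from each other at 7.77 and 7.28. In WT replicates 1 and 2 Etv1 was at 6.55 and 6.62, near the array medians of 6.59 and 6.56, and below the median in replicate 1. Etv4 did not pass with WT replicate 1 left out (adjusted p = 0.0586), with WT replicate 2 left out (0.103) or with Zip13KO replicate 1 left out (0.119).

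Among 16 measured dual specificity phosphatases outside the set, 2 rose (12.5%) and 3 fell (18.8%), near the shares of 10.6% and 15.5% among the brighter genes of the array. Besides Dusp9, Dusp18 fell by 0.75 and Dusp22 fell by 0.42. The calls of Dusp3 (0.25, adjusted p = 0.0223) and Dusp12 (-0.24, adjusted p = 0.0390) were lost with WT replicate 1, WT replicate 2 or Zip13KO replicate 2 left out (adjusted p from 0.0886 to 0.102 and from 0.104 to 0.145), and that of Dusp12 also with Zip13KO replicate 1 left out (0.105). Of 22 measured genes of the MAP kinase cascades, which are kinases apart from Nras, 3 rose (13.6%) and 2 fell (9.09%), again near the shares of the array's brighter genes. Mapk12, a p38 kinase, rose by 0.84, from 7.79 and 7.84 to 8.65 on both Zip13KO arrays, Mapkapk3, a kinase downstream of p38, fell by 0.87, and Braf, which acts above ERK, fell by 0.36. Braf did not pass with WT replicate 1 left out (-0.29, adjusted p = 0.0518). These are RNA levels, and the phosphorylation of the kinases was not measured.

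The EGR zinc-finger factors, among the first genes to answer ERK, rose for Egr1 and Egr3 and fell for Egr2. Egr1 was at 9.12 and 9.04 in WT and at 9.83 and 9.91 in Zip13KO. It rose by 0.79 log2 units (SE 0.07, adjusted p = 2.35e-07), or 1.73-fold. Egr3 was at 7.25 and 7.33 in WT and at 7.82 and 7.75 in Zip13KO, and rose by 0.50 (SE 0.08, adjusted p = 1.93e-04). In both genes each Zip13KO array lay above each WT array. Egr2 was at 8.06 and 7.96 in WT and at 7.76 and 7.70 in Zip13KO, and fell by 0.28 (adjusted p = 0.0187). It did not pass with WT replicate 1 left out (-0.23, adjusted p = 0.169), with Zip13KO replicate 2 left out (-0.25, adjusted p = 0.0783) or with all rows in the fit (adjusted p = 0.108). Egr4 did not pass, at -0.02 (95% interval -0.18 to 0.14). Nab2, a corepressor that binds EGR proteins and is itself induced by them, rose by 0.26, and did not pass with WT replicate 2 left out (adjusted p = 0.101). Another, dimmer row of Nab2 differed by 0.20. The related Nab1 was at -0.09 (adjusted p = 0.555).

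AP-1 is a dimer of FOS, JUN and ATF proteins, and its classical members Fos and Fosb did not pass. Fos lay between 7.15 and 7.20 on all 4 arrays, a difference of 0.00 with a 95% interval from -0.16 to 0.17, and Fosb was at -0.09 (-0.26 to 0.08). Of 7 measured AP-1 genes, 1 rose (14.3%) and 3 fell (42.9%), beside 7.00% and 10.1% of all genes. Fosl2, which encodes the FOS relative FRA-2, was at 10.40 and 10.31 in WT and at 9.88 on both Zip13KO arrays. It fell by 0.48 (SE 0.07, adjusted p = 4.80e-05), with no overlap between groups. Junb was at 8.82 and 8.80 in WT and at 8.48 and 8.42 in Zip13KO, and fell by 0.36 (adjusted p = 0.00167). Jund was at 9.72 and 9.65 in WT and at 9.39 and 9.38 in Zip13KO, and fell by 0.30 (adjusted p = 0.00437). JUNB and JUND are the JUN proteins that are weaker activators in many settings. Jund had another row at -0.08, and it did not pass as the mean of its rows (-0.19, adjusted p = 0.103), with WT replicate 1 left out (-0.27, adjusted p = 0.0577) or with all rows in the fit (adjusted p = 0.0539).

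Jun, the partner that FOS needs for stable binding to DNA, moved the other way from Junb and Jund. It was at 10.67 and 10.56 in WT and at 10.85 and 11.01 in Zip13KO, and rose by 0.31 (SE 0.07, adjusted p = 0.00426). It did not pass with WT replicate 2 left out (0.25, adjusted p = 0.0603) or with all rows in the fit (adjusted p = 0.0939). Atf3, a stress-induced repressor, was at 0.22 (adjusted p = 0.0882) and passed with Zip13KO replicate 2 left out (0.31, adjusted p = 0.0196), while with Zip13KO replicate 1 left out it was at 0.13 (adjusted p = 0.532). Of 11 other AP-1, CREB and ATF factors, 1 fell (9.09%, near the 10.1% of all genes that fell), Mafk, by 0.31. None rose in limma, and 3 of the 11 had an unadjusted p under 0.05, in either direction. The small MAF protein Maff in the set was at -0.19 (adjusted p = 0.122).

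**Figure D3:**
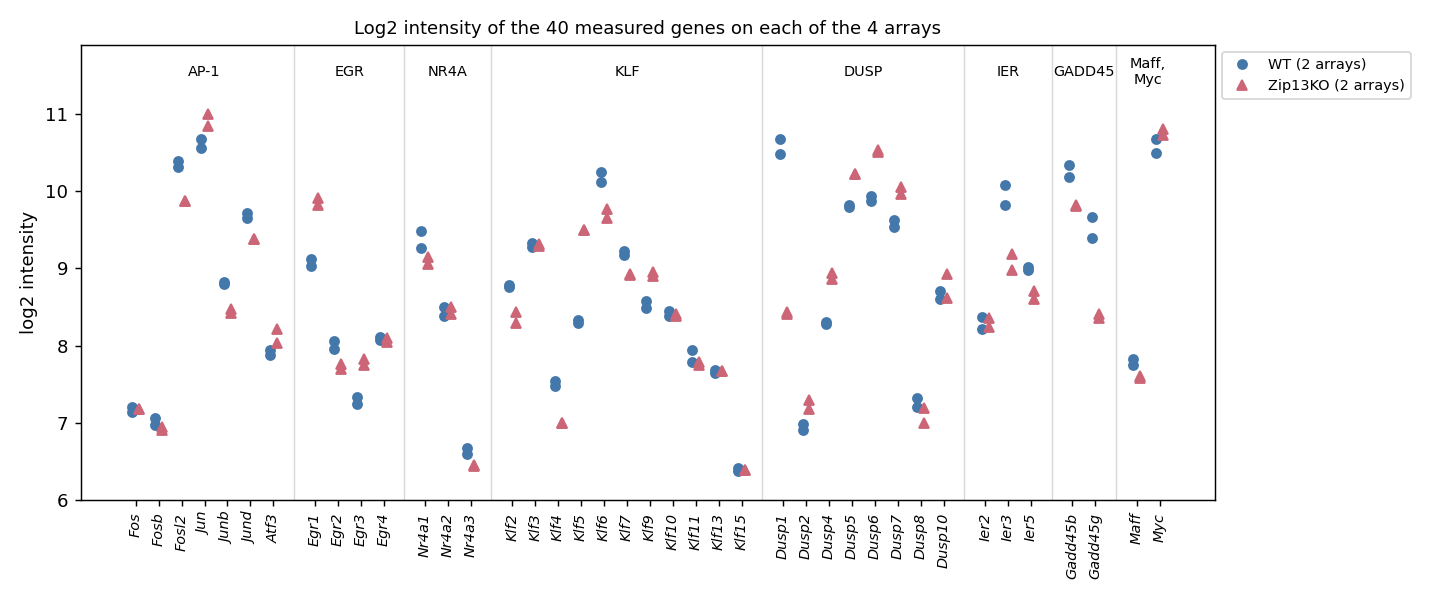
Log2 intensity of each of the 40 measured genes on the 4 arrays, by family; circles are WT and triangles Zip13KO, and heights of different genes are not comparable because each rests on its own probes. The groups are farthest apart for Dusp1, at 10.49 to 10.67 in WT and 8.41 to 8.43 in Zip13KO.

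The KLF factors bind GC-rich promoters through zinc fingers and include both activators and repressors of growth. Of 11 in the set, 2 rose (18.2%) and 4 fell (36.4%), beside 7.00% and 10.1% of all genes. Klf5, which promotes proliferation in many cell types, was at 8.33 and 8.29 in WT and at 9.50 on both Zip13KO arrays. It rose by 1.19 log2 units (SE 0.07, adjusted p = 9.71e-10), or 2.29-fold, the largest rise in the set. Klf4, which often opposes Klf5 and slows the cell cycle, was at 7.55 and 7.48 in WT and at 6.99 on both Zip13KO arrays. It fell by 0.52 (SE 0.08, adjusted p = 9.94e-05). Klf4 and Klf5 thus went in opposite directions, with no overlap between groups in either.

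Klf2, known for its part in quiescence of endothelial and T cells, was at 8.78 and 8.76 in WT and at 8.44 and 8.30 in Zip13KO, and fell by 0.40 (adjusted p = 9.88e-04). Klf6 was at 10.25 and 10.12 in WT and at 9.66 and 9.78 in Zip13KO, and fell by 0.46 (adjusted p = 1.49e-04). Klf9, which glucocorticoids induce, was at 8.48 and 8.58 in WT and at 8.95 and 8.90 in Zip13KO, and rose by 0.40 (adjusted p = 8.90e-04). For these 3 genes each array of one group lay clear of each array of the other. Klf7 fell by 0.28 (adjusted p = 0.0102), but not past the threshold as the mean of its rows (-0.17, adjusted p = 0.151), with WT replicate 2 left out (-0.25, adjusted p = 0.0858) or with all rows in the fit (adjusted p = 0.0710). Klf3, Klf10, Klf11, Klf13 and Klf15 did not pass, with differences between -0.10 and 0.01. Klf10 and Klf11, which TGF-beta induces, were at -0.02 (95% interval -0.18 to 0.14) and -0.10 (-0.27 to 0.08). Of 13 other KLF and SP genes measured, 1 rose and 1 fell (7.69% each), beside 7.00% and 10.1% of all genes. Klf8 rose by 0.98 and Klf12 fell by 0.63. Klf8 was at 6.47 and 6.97 in WT, the wider pair, and at 7.71 and 7.70 in Zip13KO. Its value in WT replicate 1 lay below the array median of 6.59. Klf12 lay below the array medians in Zip13KO, at 6.33 and 6.35 beside 6.59 and 6.57.

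The NR4A nuclear receptors are induced by cAMP and calcium and act without a known hormone. Nr4a1 was at 9.27 and 9.48 in WT and at 9.15 and 9.06 in Zip13KO, and fell by 0.27 (adjusted p = 0.0279). The WT arrays stood apart from each other, and Nr4a1 did not pass with WT replicate 2 left out (-0.16, adjusted p = 0.382), with Zip13KO replicate 2 left out (-0.22, adjusted p = 0.0832), after a further quantile normalization (-0.24, adjusted p = 0.0596) or with all rows in the fit (adjusted p = 0.195). Nr4a2 was at 0.01 (95% interval -0.16 to 0.17). Nr4a3 was at -0.19 and did not pass (adjusted p = 0.142).

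Members of the IER and GADD45 families were mostly lower. Gadd45g was at 9.67 and 9.40 in WT and at 8.41 and 8.36 in Zip13KO. It fell by 1.15 log2 units (SE 0.09, adjusted p = 1.67e-08), or 2.22-fold. Gadd45b was at 10.35 and 10.18 in WT and at 9.82 and 9.81 in Zip13KO, and fell by 0.45 (SE 0.07, adjusted p = 1.63e-04). GADD45 proteins answer stress and can activate the kinase MEKK4 above p38 and JNK. Ier3, a regulator of survival under stress, was at 10.08 and 9.83 in WT and at 8.98 and 9.19 in Zip13KO, and fell by 0.87 (SE 0.09, adjusted p = 1.02e-06). Ier5 was at 8.98 and 9.02 in WT and at 8.71 and 8.61 in Zip13KO, and fell by 0.34 (adjusted p = 0.00325), though not past the threshold with all rows in the fit (adjusted p = 0.0536). In these 4 genes the groups did not overlap. Ier2 was at 0.00 (95% interval -0.17 to 0.18).

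Myc, a growth-promoting factor, was at 10.67 and 10.49 in WT and at 10.72 and 10.81 in Zip13KO. The groups did not overlap, but the difference of 0.18 (95% interval 0.03 to 0.33) did not pass (adjusted p = 0.0986). It passed with WT replicate 1 left out (0.27, adjusted p = 0.0368), with Zip13KO replicate 1 left out (0.22, adjusted p = 0.0342) and after a further quantile normalization (0.20, adjusted p = 0.0259). Of 11 other genes of the MYC and MAX network (listed as MYC partners), 4 rose (36.4%) and none fell in limma. Among all genes 7.00% rose and 10.1% fell. Of the 11, 4 had an unadjusted p under 0.05 in either direction. Mnt and Mxi1, which compete with MYC for its partner MAX, rose by 0.46 and 0.42, and Mycn rose by 0.44. Mxi1 had another, dimmer row with a difference of 0.16. Max itself was at -0.01 (adjusted p = 0.969), with a sign that turned after a further quantile normalization (0.02). Mnt was at 7.38 and 7.44 in WT and at 8.05 and 7.69 in Zip13KO, so that with Zip13KO replicate 1 left out its difference was 0.29 (adjusted p = 0.0458). Mnt did not pass with all rows in the fit (adjusted p = 0.104).

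Outside these families, most immediate early and serum response genes that changed were lower. Of 39 genes listed, 3 rose (7.69%) and 17 fell (43.6%), beside 7.00% and 10.1% of all genes and 10.6% and 15.5% of the brighter ones. Their median difference was -0.18 log2 units, beside -0.00341 over all genes. Ptgs2, the inducible prostaglandin synthase, was at 11.69 and 11.64 in WT and at 10.39 and 10.43 in Zip13KO, and fell by 1.26 (SE 0.06). Gem, a small GTPase, was at 8.05 and 8.31 in WT and at 7.20 and 7.14 in Zip13KO, and fell by 1.01 (SE 0.09). Ccn2, a matricellular protein, fell by 1.10 on its brightest row, and another row differed by -0.15. Among SRF and its cofactors, 7 genes, only Mrtfa, the actin-regulated cofactor, was past the threshold (14.3% lower, beside 10.1% of all genes). Mrtfa was at 9.44 and 9.35 in WT and at 8.80 and 8.86 in Zip13KO, and fell by 0.56 (SE 0.07, adjusted p = 1.70e-05). Srf was at -0.12 (adjusted p = 0.306), and the ternary complex factors Elk1, Elk3 and Elk4 were at -0.11, -0.07 and 0.12 without passing. Mrtfb, the relative of Mrtfa, was at -0.02 (adjusted p = 0.903), and Myocd, the cofactor of muscle, at 0.00 (adjusted p = 0.989). Of the 7 smooth muscle and pericyte markers, several of which are SRF targets, 5 were lower on the same Zip13KO arrays. Myh11 (0.01, adjusted p = 0.955) and Rgs5 (-0.07, adjusted p = 0.707) did not pass. The part of these markers in the differences above was not tested.

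**Figure D4:**
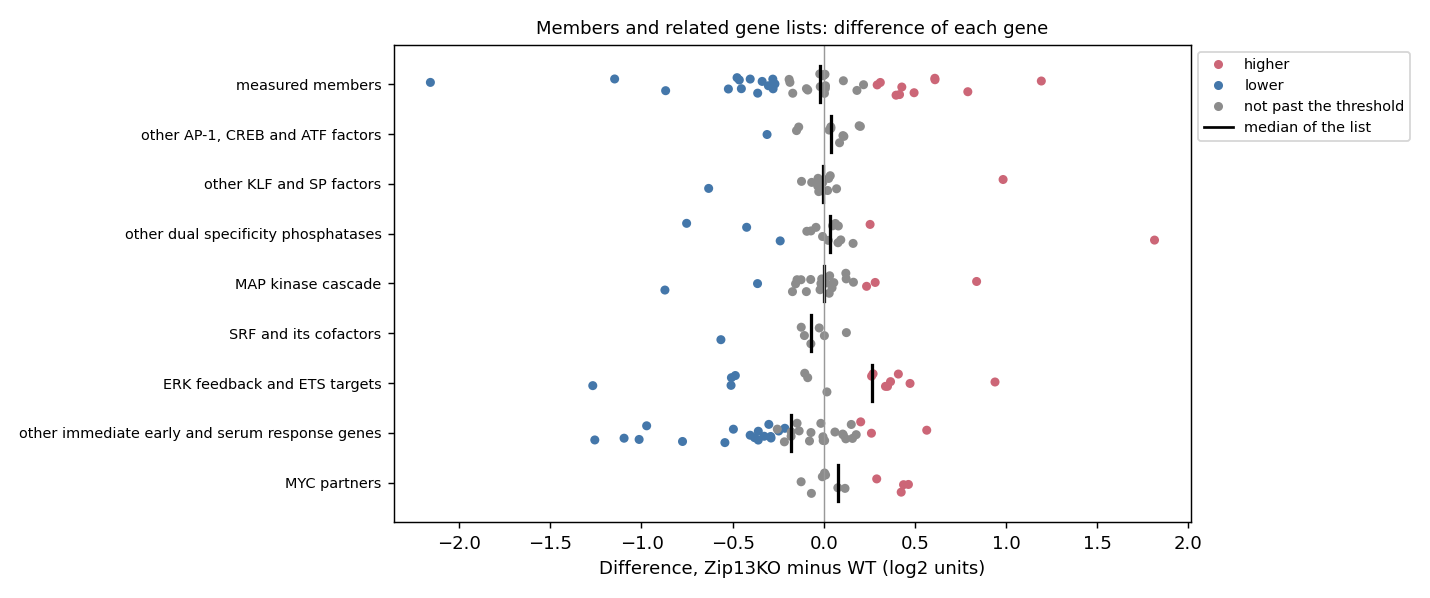
Difference in log2 intensity, Zip13KO minus WT, of each gene of the set and of 8 related gene lists; points are genes, coloured by the limma call, and the black line is the median of the list. The ERK feedback and ETS list has a median of 0.26 and the other immediate early and serum response genes one of -0.18.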

How the data were processed

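The authors' deposited intensity values, which are linear, were used. The submitters' processing notes name RMA and the Affymetrix Expression Console. Build, annotation and summary level were not stated. RMA gives all arrays a like distribution, so it would hide a change common to most genes, and it compresses the differences of dim genes. The tests were planned on log2 values, and log2 was taken of the intensity with no pseudocount. Of 41345 rows, 23521 had 1 gene symbol in the platform annotation, 1814 had several and 16010 were unnamed here. The brightest row was kept for each of 22180 genes. No intensity filter was applied.

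Differences are Zip13KO minus WT from limma 3.58.1 in R 4.3.3 (lmFit, eBayes with trend, two-sided, 2 residual and 15.1 prior degrees of freedom), adjusted by Benjamini-Hochberg over all genes, with a threshold of 0.05. Intervals are 95% intervals of that fit. The pipeline was tested on simulated data. The members and lists were chosen with earlier results of these data known. All members are named. From each related list the text names the 3 genes with the largest differences past the threshold, or the one with the smallest p. Other genes of these lists and the single markers were named after values were seen. Marker lists that the report does not describe (epithelial, skeletal muscle, adipocyte, Schwann cell and melanocyte) had 0 genes past the limma threshold, with 1, 1, 1 and 0 at an unadjusted p under 0.05. The endothelial list likewise had 0 past it and 1 at that p; of 9 leukocyte markers, 1 rose and 2 fell. As alternatives, each array was left out in turn, all rows were fitted and adjusted, the rows of a gene were averaged, eBayes was run without trend or with robust variance, arrays were centred on their median or quantile normalized again, dim genes were filtered out, and the replicate number was added as a block. Replicate numbers crossed between groups were added after the data were seen. The number of arrays limits the precision. Motifs were searched as letters on both strands, and figures were drawn with matplotlib 3.10.9.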

Additional observations from a re-analysis of the deposited data

How the results depend on the processing

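Of the 24 members past the threshold, 17 (8 higher and 9 lower) stayed past it in the same direction under all 13 alternatives, and 12 of the 40 passed under none. With the replicate number as a block, 10 members rose and 14 fell, as without it, and no member's call changed. Dusp1 had an adjusted p of 2.69e-103 in that limma fit, which is reachable only if variance is pooled over all genes. Unchanged calls there thus say little about the spread of each gene. In the other lists, the dual specificity phosphatases that rose went from 2 to 1, as Dusp3 was lost (adjusted p = 0.0681). Dusp12 was lost among those that fell (adjusted p = 0.0853). The immediate early and serum response genes that rose went from 3 to 1. Same-numbered arrays deviated with a correlation of -0.158 over genes, and with crossed numbers 12 members rose and 15 fell, 2 AP-1 members rose, and 1 other AP-1, CREB and ATF factor rose. After a further quantile normalization no NR4A member fell (0), and 1 other AP-1, CREB and ATF factor rose. With all rows fitted and adjusted, 669 genes rose and 1137 fell, and 8 members rose and 9 fell. No AP-1 member rose, and no EGR member, NR4A member or other AP-1, CREB and ATF factor fell (0 each). In the other lists, 1 dual specificity phosphatase rose, 1 MAP kinase gene rose and 1 fell, 4 ERK feedback genes rose, 1 immediate early and serum response gene rose and 8 fell, and 2 MYC partners rose. The cause was not tested. Among genes named outside the set, Mafk (adjusted p = 0.0607), Braf (0.0678), Dusp3 (0.0999), Dusp12 (0.125), Mnt (0.104), Spred1 (0.0625), Etv4 (0.101), Etv5 (0.0654) and Nab2 (0.0746) did not pass then either.

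With each array left out in turn, 9 to 12 members rose and 12 to 14 fell. The AP-1 members that rose numbered 0 to 2, the EGR members and the NR4A members that fell 0 to 1 each, the other AP-1, CREB and ATF factors that fell 1 to 2, and the other dual specificity phosphatases that rose 1 to 2. MAP kinase genes that rose numbered 1 to 3 and those that fell 1 to 3, and 1 to 4 immediate early and serum response genes rose. Such fits take the spread of the lone array to be that of the full group. Of the genes named, the sign of the difference turned only for those that did not pass with all 4 arrays. With an array left out the differences ran from -0.0244 to 0.0315 for Fos, from -0.0526 to 0.0712 for Nr4a2, from -0.0179 to 0.0310 for Klf3, from -0.0565 to 0.0126 for Klf10, from -0.0113 to 0.0283 for Klf13, from -0.0236 to 0.0171 for Klf15, from -0.0777 to 0.0839 for Ier2, from -0.0492 to 0.0106 for Egr4, from -0.0480 to 0.263 for Dusp10, from -0.0137 to 0.0481 for Spred3, from -0.0782 to 0.0283 for Mrtfb, from -0.0490 to 0.0331 for Max, from -0.0425 to 0.0489 for Myocd and from -0.00554 to 0.0898 for Slc39a13. With arrays centred on their median, Fos was at -0.00224 Ier2 at -0.00269 and Myocd at -0.00255, and after a further quantile normalization Mrtfb was at 0.00189 Max at 0.0216 and Myocd at -0.00121. As the mean of its rows Dusp12 did not pass (-0.178, adjusted p = 0.166). Klf15 was left out by the filter on low values.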

Other observations

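Of the members measured, Nr4a2 and Dusp2 lie on chromosome 2, where Slc39a13 lies. In the order of the measured genes of that chromosome, Dusp2 is 325 genes and Nr4a2 is 432 genes away from it, so no member is among the 50 nearest genes.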
